A study of Mus musculus with 6 samples.

Results

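The muscle splicing regulators examined here are 10 genes for RNA-binding proteins that choose between alternative exons in muscle cells, namely Mbnl1, Mbnl2, Mbnl3, Celf1, Celf2, Rbfox1, Rbfox2, Rbm24, Rbm20 and Ptbp1. They were picked by gene symbol from a table of 28892 genes, in which all 10 were found, and 110 of the 92513 transcripts in the transcript table belonged to them. RNA sequencing compared C2C12 Myod1-/- cells with C2C12 WT cells, 3 samples of each. C2C12 is a mouse myoblast line that descends from satellite cells of a female mouse of the C3H strain, taken from thigh muscle at 2 months of age. In C2C12 Myod1-/- cells the gene for MyoD, a transcription factor that drives muscle differentiation, carries a CRISPR/Cas9 deletion in its first exon, and the cells came from 1 clone selected with puromycin after lentiviral delivery of Cas9 and guide. C2C12 WT cells had neither. Cells of both genotypes were kept for 6 days in Ndiff227, a serum-free medium, before they were trypsinised and total RNA was taken. According to the study, C2C12 WT cells had then become myotubes, whereas C2C12 Myod1-/- cells floated as spheres, so that genotype, clone and state of differentiation cannot be told apart. The labels do not say whether the 3 samples of a genotype were separate cultures, so that p-values reflect no more than the spread among the samples at hand, which may be technical.

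Splicing regulators bind short motifs in introns and exons of a pre-mRNA and favour or block the use of a nearby exon. Muscle differentiation is known for a change of exon choice in many genes, with MBNL, RBFOX, RBM24 and RBM20 proteins favouring adult muscle forms, CELF proteins acting against MBNL proteins on several shared exons, and PTBP1 blocking exons that muscle and nerve cells use. Several of these regulators also splice their own pre-mRNAs. MBNL proteins, for example, have an exon of 54 nt that takes part in holding the protein in the nucleus.

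The alternative exons described below are shown first, so that each can be set beside its inclusion, whether or not that passed the test. Of these, the Fxr1 and Camk2d exons passed and the Mbnl1, Mbnl2 and Pkm exons did not. They belong to 2 of the regulators and to 3 genes whose alternative exons such regulators are known to control. Coordinates are those of GRCm38, all on the + strand. In Mbnl1 (chr3:60614683-60614736) and Mbnl2 (chr14:120395712-120395765) the exons of 54 nt were identical at 46 of 54 bases (85.2%), and capitals mark the bases that differ between them.
Mbnl1 54-nt exon: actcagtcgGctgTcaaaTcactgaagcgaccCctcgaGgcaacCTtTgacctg
Mbnl2 54-nt exon: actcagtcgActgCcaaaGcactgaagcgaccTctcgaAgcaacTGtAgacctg

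Fxr1 encodes an RNA-binding protein of the fragile X family with a muscle form, and Camk2d encodes a subunit of a calcium-dependent kinase. Below, capitals mark the alternative exon, and 15 bases of its neighbours in 1 transcript stand on either side. The exons lie at chr3:34064974-34065054 (Fxr1), chr3:126805857-126805916 (Camk2d, 60 nt) and chr3:126808208-126808249 (Camk2d, 42 nt).
Fxr1 81-nt exon: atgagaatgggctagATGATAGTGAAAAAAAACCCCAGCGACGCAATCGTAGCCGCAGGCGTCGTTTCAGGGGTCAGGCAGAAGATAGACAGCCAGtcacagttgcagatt
Camk2d 60-nt exon: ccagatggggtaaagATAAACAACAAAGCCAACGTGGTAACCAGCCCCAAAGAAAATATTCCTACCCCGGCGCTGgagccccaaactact
Camk2d 42-nt exon: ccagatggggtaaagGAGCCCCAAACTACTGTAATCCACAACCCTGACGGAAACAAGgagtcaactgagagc

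Pkm encodes pyruvate kinase, a glycolytic enzyme whose M1 exon is typical of adult muscle and whose M2 exon, the one kept when PTBP1 blocks M1, is typical of growing cells. The M1 exon (chr9:59675029-59675195) and the M2 exon (chr9:59675568-59675734) are used one in place of the other. They were identical at 61.7% of 167 bases, and capitals mark the bases that differ.
Pkm M1 exon: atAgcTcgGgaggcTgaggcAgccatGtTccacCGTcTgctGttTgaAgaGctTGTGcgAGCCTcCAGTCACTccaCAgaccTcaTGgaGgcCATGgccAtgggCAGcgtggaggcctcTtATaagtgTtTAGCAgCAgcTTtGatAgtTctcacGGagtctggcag
Pkm M2 exon: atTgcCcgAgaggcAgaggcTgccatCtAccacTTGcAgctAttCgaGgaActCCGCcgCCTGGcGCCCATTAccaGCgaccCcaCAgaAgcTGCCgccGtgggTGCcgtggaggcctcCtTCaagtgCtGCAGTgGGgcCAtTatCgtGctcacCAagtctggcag

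Of the 10 regulators, 4 fell in C2C12 Myod1-/- cells, 1 rose, 4 did not pass the test and 1 was too low to be tested. These counts are from the gene table, where Rbm24 and Celf2 showed the largest falls and Ptbp1 rose, whereas Mbnl1 and Rbm20 fell by small amounts. In the sums of listed transcripts, given further on, Rbm20 and Rbfox1 fell by more than Celf2. Values are FPKM as deposited, that is fragments scaled for the length of the gene and for the mapped fragments of the library. Length is divided out, but how levels of different genes compare also depended on the table used, as given further on. A gene rose or fell where limma gave a Benjamini-Hochberg adjusted p under 0.05 in a fit to log2(FPKM + 0.1). The fit covered 14045 genes that averaged 0.5 FPKM or more across all libraries. Of these, 61.1% passed, 27.9% of them all as higher and 33.3% as lower in C2C12 Myod1-/- cells, so that 5 of 9 regulators is close to the share among all genes. The median log2 difference was -0.10 over the 9 regulators and -0.05 over all genes tested.

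**Figure D1:**
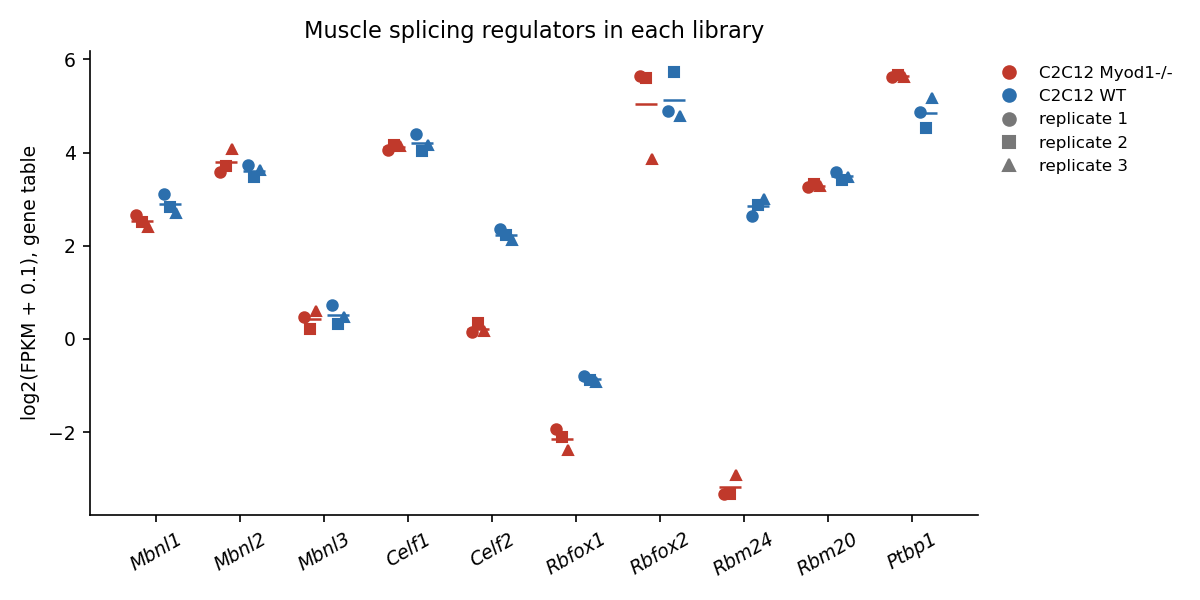
FPKM of the 10 muscle splicing regulators on the log2(FPKM + 0.1) scale (y axis) in 3 C2C12 Myod1-/- libraries (red, left of each pair) and 3 C2C12 WT libraries (blue). Points are libraries, their shape gives the replicate number and lines are means. Rbm24 and Celf2 separate the genotypes, and Rbfox2 spreads from 14.5 to 49.97 FPKM within C2C12 Myod1-/- libraries.

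Rbm24 encodes a protein that promotes the inclusion of muscle exons in heart and skeletal muscle. The gene (ENSMUSG00000038132, chr13:46418434-46431095, + strand) was listed at 0, 0 and 0.0330 FPKM in C2C12 Myod1-/- libraries, against 6.15, 7.25 and 7.98 FPKM in C2C12 WT libraries. Rbm24 was thus at or next to 0 in every C2C12 Myod1-/- library and well above 0 in every C2C12 WT library. It fell by 6.03 on the log2(FPKM + 0.1) scale (SE 0.18, adjusted p = 9.38e-07), a size that depends on the added 0.1. In bulk RNA, fewer cells that express a gene and less of its RNA per cell cannot be told apart. Nearly all of it in C2C12 WT cells was 1 transcript, ENSMUST00000037923, with 6.92, 8.06 and 8.93 FPKM.

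Rbm20 encodes a regulator known for splicing titin (Ttn) in heart and skeletal muscle. The gene table gave 9.55, 9.91 and 9.60 FPKM in C2C12 Myod1-/- libraries and 11.9, 10.6 and 10.95 FPKM in C2C12 WT libraries. The libraries of the genotypes did not overlap, but lay close together. Rbm20 fell by 0.20 on the log2 scale (SE 0.06, adjusted p = 0.0257). This call was lost in 6 of 15 alternative settings, with adjusted p from 0.00141 to 0.1998. Leaving out a single library ended it for replicates 1 and 3 of C2C12 Myod1-/- (0.0783 and 0.0737) and for replicate 3 of C2C12 WT (0.0537).

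The transcripts listed for Rbm20 differed far more. Their summed FPKM was 0.124, 0.152 and 0.0917 in C2C12 Myod1-/- libraries, against 11.8, 2.94 and 3.29 in C2C12 WT libraries. The full-length transcript with 14 exons, ENSMUST00000164202 (chr19:53677306-53867080), was listed at 0 in all 3 C2C12 Myod1-/- libraries and at 11.2, 2.39 and 2.02 FPKM in C2C12 WT libraries (adjusted p = 0.00545, limma over all transcripts). In C2C12 Myod1-/- libraries the listed transcripts held 0.956% to 1.53% of the FPKM that the gene table gives for Rbm20, and in C2C12 WT libraries 27.7% to 99.2%. Where the sums of listed transcripts were fitted in place of the gene table, Rbm20 fell by 4.49 (SE 0.55, adjusted p = 0.00141). Most of the gene value in C2C12 Myod1-/- libraries is thus not in any listed Rbm20 transcript.

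Celf2 and Celf1 encode CELF proteins, which bind GU-rich RNA. Celf2 (ENSMUSG00000002107, chr2:6539694-7509563, - strand) was at 1.01, 1.17 and 1.03 FPKM in C2C12 Myod1-/- libraries and at 5.01, 4.59 and 4.29 FPKM in C2C12 WT libraries. It fell by 2.02 on the log2 scale (SE 0.10, adjusted p = 8.55e-06), with no overlap between the genotypes. Celf1, the more abundant paralog, had 16.6, 17.7 and 17.5 FPKM in C2C12 Myod1-/- libraries and 21.1, 16.4 and 17.7 FPKM in C2C12 WT libraries. These values overlapped, and the difference was -0.08 (SE 0.10, adjusted p = 0.492). Celf2 made up 5.55% to 6.18% of the summed FPKM of both genes in C2C12 Myod1-/- libraries and 19.2% to 21.8% in C2C12 WT libraries.

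Of the Celf2 transcripts, 4 of 22 listed passed the filter of 0.5 FPKM. ENSMUST00000183209 had 0.359, 0.0957 and 0.325 FPKM in C2C12 Myod1-/- libraries, against 1.72, 2.27 and 1.37 FPKM in C2C12 WT libraries (adjusted p = 0.0147, limma). The others, ENSMUST00000142941, ENSMUST00000150624 and ENSMUST00000100429, had adjusted p of 0.0886, 0.314 and 0.876. None of the 4 passed the test of its share of the Celf2 transcripts. Of the Celf1 transcripts, ENSMUST00000111451 averaged 40.2% of the summed transcript FPKM in C2C12 Myod1-/- libraries and 20.6% in C2C12 WT libraries, ENSMUST00000005643 averaged 32.7% in C2C12 Myod1-/- and 18.6% in C2C12 WT libraries, and ENSMUST00000111455 averaged 16.4% in C2C12 Myod1-/- and 27.0% in C2C12 WT libraries. None of these shares passed the test.

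MBNL proteins bind YGCY motifs and are the factors sequestered by expanded repeats in myotonic dystrophy. Mbnl1 had 6.19, 5.61 and 5.21 FPKM in C2C12 Myod1-/- libraries and 8.58, 7.04 and 6.45 FPKM in C2C12 WT libraries. The libraries did not overlap and Mbnl1 fell by 0.36 (SE 0.12, adjusted p = 0.0388). The call was kept in only 6 of 15 alternative settings, with adjusted p from 0.0146 to 0.282. Leaving out a single library ended it for replicates 2 and 3 of C2C12 Myod1-/- (0.0919 and 0.113) and for replicates 1 and 2 of C2C12 WT (0.0698 and 0.0703).

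Mbnl2 had 11.9, 12.98 and 16.7 FPKM in C2C12 Myod1-/- libraries and 13.2, 10.99 and 12.3 FPKM in C2C12 WT libraries, which overlapped (log2 difference 0.18, SE 0.14, adjusted p = 0.301). Mbnl3, the least abundant of the family, had 1.28, 1.05 and 1.42 FPKM in C2C12 Myod1-/- libraries and 1.56, 1.15 and 1.29 FPKM in C2C12 WT libraries (log2 difference -0.09, SE 0.16, adjusted p = 0.669). The sign of this difference turned under 4 alternatives. The 3 genes together had 19.4, 19.7 and 23.3 FPKM in C2C12 Myod1-/- libraries and 23.3, 19.2 and 20.0 FPKM in C2C12 WT libraries, which overlapped. In the gene table, the summed FPKM of the MBNL genes over that of Celf1 and Celf2 was 1.10, 1.04 and 1.26 in C2C12 Myod1-/- libraries and 0.894, 0.914 and 0.910 in C2C12 WT libraries, without overlap. This ratio was not formed from the sums of listed transcripts given further on. With 3 against 3 samples an exact permutation test cannot give a p under 0.1, and neither the family sums nor the ratio was tested.

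RBFOX proteins bind UGCAUG next to alternative exons in muscle and brain. Rbfox1 was low in both genotypes, with 0.162, 0.132 and 0.0918 FPKM in C2C12 Myod1-/- libraries and 0.475, 0.444 and 0.425 FPKM in C2C12 WT libraries. The libraries did not overlap, but the gene was under the filter and was not tested in the gene table. In the sums of listed transcripts it passed the filter, with 0.231, 0.188 and 0.130 FPKM in C2C12 Myod1-/- libraries against 1.41, 1.66 and 1.66 FPKM in C2C12 WT libraries, and fell by 2.58 (SE 0.20, adjusted p = 2.09e-04).

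The transcripts behind the Rbfox1 values started at different places. ENSMUST00000229741, with 13 exons, starts at chr16:7069846 and was listed at 0 in all 3 C2C12 Myod1-/- libraries and at 1.36, 0.792 and 1.06 FPKM in C2C12 WT libraries (adjusted p = 0.00580, limma). ENSMUST00000056416, with 15 exons, starts upstream, at chr16:6349138, and had 0.231, 0.188 and 0.130 FPKM in C2C12 Myod1-/- libraries and 0.0554, 0 and 0.0178 FPKM in C2C12 WT libraries. It was the one Rbfox1 transcript above 0 in C2C12 Myod1-/- libraries, and it was under the filter and not tested.

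Rbfox2 is the abundant member of the family in these cells. The gene table gave 49.97, 48.3 and 14.5 FPKM in C2C12 Myod1-/- libraries and 29.5, 53.1 and 27.4 FPKM in C2C12 WT libraries. Replicates of 1 genotype differed more than the genotypes did, and the log2 difference was -0.10 (SE 0.52, adjusted p = 0.884). It turned to 0.49 without replicate 3 of C2C12 Myod1-/- and to 0.20 without replicate 2 of C2C12 WT.

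The sums of listed Rbfox2 transcripts were much lower and steadier, with 3.51, 2.94 and 2.13 FPKM in C2C12 Myod1-/- libraries and 5.92, 7.33 and 8.81 FPKM in C2C12 WT libraries. Fitted as sums, Rbfox2 fell by 1.34 (SE 0.23, adjusted p = 0.00555), with no overlap. Its main transcript, ENSMUST00000227533, had 1.53, 1.03 and 0.903 FPKM in C2C12 Myod1-/- libraries against 3.98, 3.80 and 4.10 FPKM in C2C12 WT libraries (adjusted p = 0.00526, limma). The listed transcripts held 6.09% to 14.7% of the gene value in C2C12 Myod1-/- libraries and 13.8% to 32.1% in C2C12 WT libraries.

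**Figure D2:**
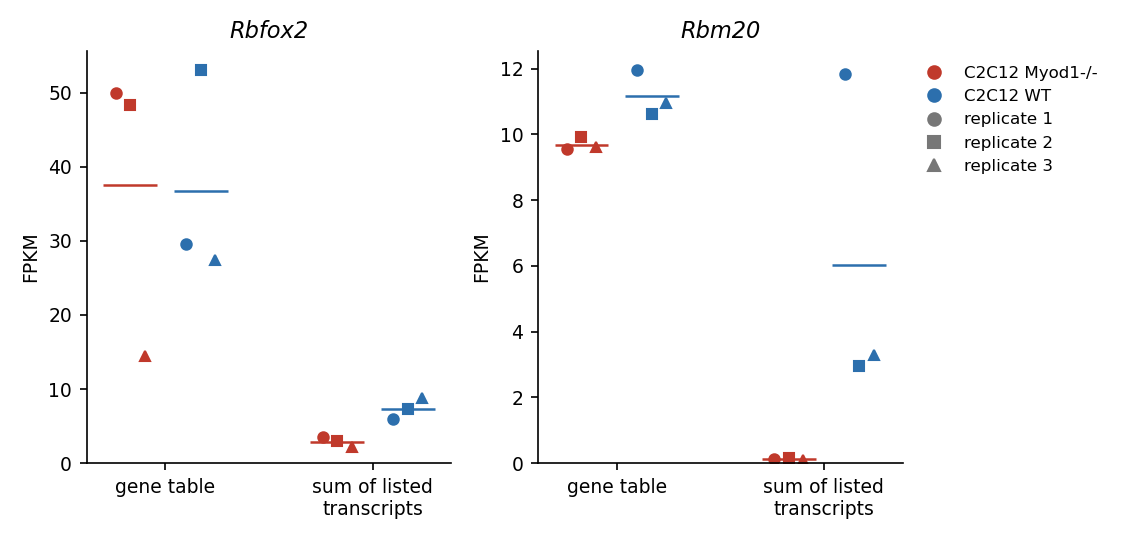
FPKM (y axis, linear from 0) of Rbfox2 and Rbm20 in the gene table and as the sum of their listed transcripts, in 3 C2C12 Myod1-/- libraries (red, left) and 3 C2C12 WT libraries (blue). Points are libraries, their shape gives the replicate number and lines are means. The genotypes separate clearly in the sums, whereas in the gene table Rbfox2 overlaps and Rbm20 differs by 0.20 on the log2 scale.

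Such a gap between the tables was not the rule. Over 13872 genes the summed transcripts were at a median of 113% of the gene value, and 3.45% of genes lay under 25%. On the high side, the listed Mbnl1 transcripts summed to 308% to 418% of the gene value in C2C12 Myod1-/- libraries and to 325% to 450.2% in C2C12 WT libraries, above 299%, the 95th percentile over these genes. The transcript table also holds 11474 assembled transcripts that carry neither a gene nor a position, with 14.8% to 16.3% of all transcript FPKM in C2C12 Myod1-/- libraries and 11.9% to 12.3% in C2C12 WT libraries, and these could not be assigned to Rbfox2 or Rbm20. Genes on the opposite strand lie within both loci, 1700109K24Rik in Rbfox2 with 3.03, 3.18 and 3.32 FPKM in C2C12 Myod1-/- and 2.96, 1.93 and 2.43 FPKM in C2C12 WT libraries, and Gm16299 in Rbm20 with under 1 FPKM in every library. The library kit does not mark strand. The part of these in the gap was not tested.

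**Figure D3:**
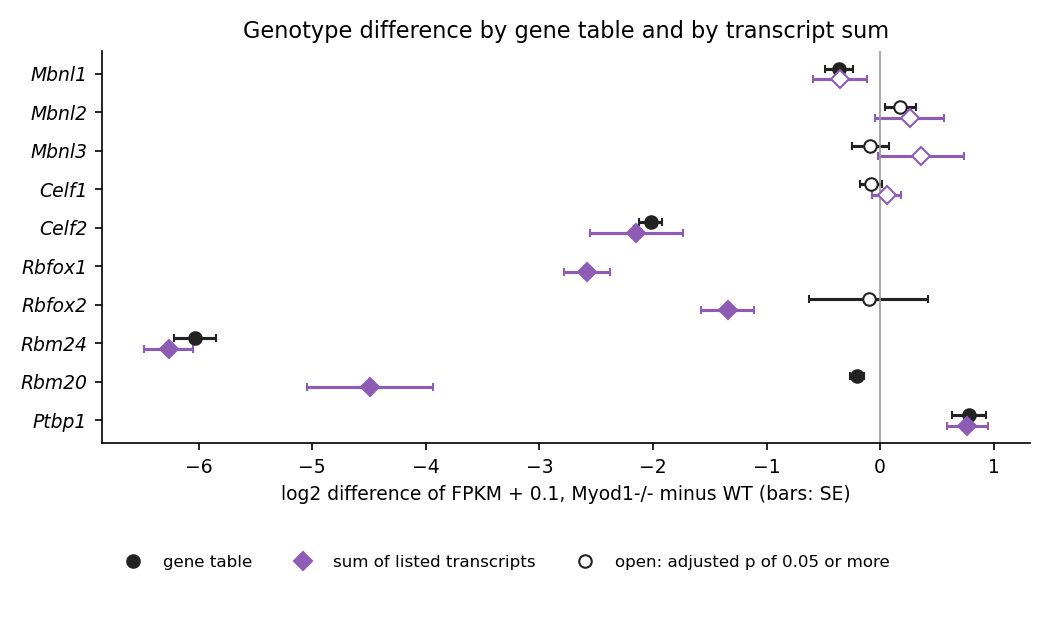
Log2 difference of FPKM + 0.1, C2C12 Myod1-/- minus C2C12 WT (x axis), for each muscle splicing regulator in the gene table (black circles) and in the sums of listed transcripts (purple diamonds), with bars for 1 SE. Filled symbols have an adjusted p under 0.05. The 2 measures lie apart for Rbfox2 (-0.10 and -1.34) and Rbm20 (-0.20 and -4.49).

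In the sums, 1 of 10 regulators rose and 5 fell, where 45.3% of 14046 genes passed. Celf2 fell by 2.15 (SE 0.41, adjusted p = 0.00805) and Rbm24 by 6.26 (SE 0.22), close to the gene table. Mbnl1 did not pass (-0.35, SE 0.24, adjusted p = 0.282), and neither did Mbnl2, Mbnl3 and Celf1.

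Ptbp1 encodes the polypyrimidine tract binding protein, a repressor of exons that is known to decline when muscle and nerve cells differentiate. Ptbp1 (ENSMUSG00000006498, chr10:79854427-79864771, + strand) had 49.3, 51.0 and 48.9 FPKM in C2C12 Myod1-/- libraries and 29.0, 23.1 and 35.9 FPKM in C2C12 WT libraries. It rose by 0.78 on the log2 scale (SE 0.15, adjusted p = 0.00437), with no overlap, and by 0.77 (SE 0.18, adjusted p = 0.0165) in the sums of transcripts. It was called higher in all 15 alternative settings. Plppr3 and E130317F20Rik lie on the opposite strand and overlap Ptbp1 exons by up to 911 bases. Plppr3 was at 6.88 to 7.66 FPKM in C2C12 Myod1-/- and 4.23 to 4.90 FPKM in C2C12 WT libraries, and E130317F20Rik at 0.569 to 0.699 FPKM in C2C12 Myod1-/- and 0.940 to 1.22 FPKM in C2C12 WT libraries. Their part in the Ptbp1 values was not tested.

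Single Ptbp1 transcripts were unsteady. ENSMUST00000095457, for example, was listed at 0, 45.9 and 34.9 FPKM in C2C12 Myod1-/- libraries and at 28.0, 3.84 and 0 FPKM in C2C12 WT libraries, and ENSMUST00000169580 at 52.3, 3.89 and 4.45 FPKM in C2C12 Myod1-/- libraries and at 2.58, 4.37 and 47.4 FPKM in C2C12 WT libraries. No Ptbp1 transcript was called.

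The order of levels depended on the table. In the gene table, the means in C2C12 Myod1-/- cells ran from Ptbp1 (49.7 FPKM) over Rbfox2 (37.6), Celf1 (17.3), Mbnl2 (13.9), Rbm20 (9.69), Mbnl1 (5.67), Mbnl3 (1.25), Celf2 (1.07) and Rbfox1 (0.129) to Rbm24 (0.0110). Rbfox2 overlapped both of its neighbours there, as did Celf1 and Mbnl2, and Mbnl3 and Celf2. In C2C12 WT cells the means ran from Rbfox2 (36.7 FPKM) over Ptbp1 (29.3), Celf1 (18.4), Mbnl2 (12.1), Rbm20 (11.2), Mbnl1 (7.36), Rbm24 (7.13), Celf2 (4.63) and Mbnl3 (1.34) to Rbfox1 (0.448), with overlap between Rbfox2 and Ptbp1, between Mbnl2 and Rbm20, and between Mbnl1 and Rbm24.

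In the sums of listed transcripts, Mbnl1 stood higher and Rbfox2 and Rbm20 far lower in the order. The means in C2C12 Myod1-/- cells ran from Ptbp1 (94.4 FPKM) over Celf1 (22.4), Mbnl2 (22.2), Mbnl1 (21.7), Rbfox2 (2.86), Celf2 (1.44), Mbnl3 (0.919), Rbfox1 (0.183) and Rbm20 (0.123) to Rbm24 (0.0123), where Celf1, Mbnl2 and Mbnl1 overlapped, as did Celf2 with both of its neighbours and Rbfox1 with Rbm20. In C2C12 WT cells they ran from Ptbp1 (56.6 FPKM) over Mbnl1 (27.7), Celf1 (21.7), Mbnl2 (17.6), Rbm24 (8.52), Rbfox2 (7.36), Celf2 (6.86), Rbm20 (6.03) and Rbfox1 (1.58) to Mbnl3 (0.641), with overlap between neighbours from Mbnl1 to Mbnl2 and from Rbm24 to Rbm20.

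Of the regulators' 110 listed transcripts, 44 passed the filter, 1 rose and 6 fell, where 18.9% of all 41216 transcripts tested passed. Besides those of Rbm20, Rbm24, Celf2, Rbfox1 and Rbfox2 given above, both remaining calls were in Mbnl2. ENSMUST00000227594, which has 9 exons and holds the exon of 54 nt, was listed at 0 in all 3 C2C12 Myod1-/- libraries and at 3.99, 4.05 and 4.53 FPKM in C2C12 WT libraries (adjusted p = 1.45e-04, limma). ENSMUST00000088419, which starts farther upstream and holds the same exon, had 0.521, 2.06 and 0.817 FPKM in C2C12 Myod1-/- libraries and 0.122, 0.0804 and 0.147 FPKM in C2C12 WT libraries, and rose (log2 difference 2.32, SE 0.57, adjusted p = 0.0428, limma). This rise was lost without replicate 2 or 3 of C2C12 Myod1-/- and without replicate 2 or 3 of C2C12 WT, each of which left 0 regulator transcripts called higher. The Mbnl2 gene as a whole did not pass the test.

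Whether a transcript changed its share within its gene was tested with diffSplice of limma, and with a fit on the log ratio of a transcript to the others of its gene that gives each transcript its own variance. Among the 41 transcripts of 6 regulators that could be tested, the share of 1 fell and that of 0 rose, where 3.61% of 24755 transcripts passed diffSplice and 1.17% the other test. This was again ENSMUST00000227594 of Mbnl2, with 0% of the summed transcript FPKM in C2C12 Myod1-/- libraries and 19.8%, 23.8% and 29.2% in C2C12 WT libraries (adjusted p = 0.00220 by diffSplice of limma and 0.00596 with its own variance). The most abundant Mbnl2 transcript, ENSMUST00000227153 with 2 exons, averaged 47.2% in C2C12 Myod1-/- and 49.7% in C2C12 WT libraries. ENSMUST00000226800 averaged 17.5% in C2C12 Myod1-/- and 1.72% in C2C12 WT libraries, but did not pass, and ENSMUST00000227484 averaged 19.0% in C2C12 Myod1-/- and 13.3% in C2C12 WT libraries.

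The transcripts of the other regulators did not pass the test of their shares. In Mbnl1, ENSMUST00000192394 averaged 24.2% in C2C12 Myod1-/- and 20.9% in C2C12 WT libraries and ENSMUST00000192607 averaged 16.2% in C2C12 Myod1-/- and 21.2% in C2C12 WT libraries. ENSMUST00000194069, which holds the Mbnl1 exon of 54 nt, averaged 15.6% in C2C12 Myod1-/- and 9.75% in C2C12 WT libraries. ENSMUST00000099087 averaged 5.36% in C2C12 Myod1-/- and 10.04% in C2C12 WT libraries, and ENSMUST00000192086 averaged 4.003% in C2C12 Myod1-/- and 11.8% in C2C12 WT libraries. Single libraries at 0 weigh on these averages, as replicate 3 of both genotypes did for ENSMUST00000192607. In Ptbp1, ENSMUST00000172282 averaged 16.0% in C2C12 Myod1-/- and 27.9% in C2C12 WT libraries and ENSMUST00000165153 averaged 20.9% in C2C12 Myod1-/- and 6.33% in C2C12 WT libraries. In Rbfox2, ENSMUST00000227533 averaged 40.4% in C2C12 Myod1-/- and 55.2% in C2C12 WT libraries, ENSMUST00000227314 averaged 3.97% in C2C12 Myod1-/- and 21.3% in C2C12 WT libraries, and ENSMUST00000228582 averaged 20.97% in C2C12 Myod1-/- and 13.6% in C2C12 WT libraries.

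Exons were then followed across transcripts. For each annotated alternative exon, the FPKM of transcripts that hold it was set against the FPKM of transcripts with an intron that spans it. Which exons that intron joins was not considered, so that for the Pkm M1 exon the skipping form is the one with M2. Inclusion is the share of the first in both. These are estimates from the FPKM of listed transcripts in the annotation, not junction reads. The assembled transcripts without a gene or position did not enter. The log2 odds of inclusion were fitted with limma over 5069 exons, of which 2.15% passed.

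None of the 15 exons tested in 6 regulators passed, by limma over all exons, and 1 had an unadjusted p under 0.05. Without replicate 2 of C2C12 Myod1-/- 1 of them was called lower, and without replicate 1 of C2C12 WT 1 was called higher. The exon with an unadjusted p under 0.05 was the Mbnl2 exon of 54 nt printed above, which was included at 9.004%, 32.0% and 12.4% in C2C12 Myod1-/- libraries and at 77.8%, 66.2% and 70.8% in C2C12 WT libraries. The libraries did not overlap, and the log2 odds differed by -3.58 (SE 0.65), with an adjusted p of 0.0649 (limma). The matching Mbnl1 exon was included at 25.4%, 34.4% and 41.4% in C2C12 Myod1-/- libraries and at 23.5%, 35.1% and 0% in C2C12 WT libraries, which overlapped (adjusted p = 0.655, limma). The Rbfox2 exon of 93 nt, which lies in the part that encodes the RNA-binding domain, was included at 14.1%, 28.7% and 12.5% in C2C12 Myod1-/- libraries and at 13.2%, 38.0% and 40.5% in C2C12 WT libraries, which overlapped as well. Both forms of it together had 1.30 to 1.78 FPKM in C2C12 Myod1-/- and 4.59 to 7.03 FPKM in C2C12 WT libraries. The gene table gave 14.5 to 53.1 FPKM for Rbfox2, so that inclusion in most of its RNA is unknown. The Ptbp1 exon of 34 nt, whose skipping by PTBP1 itself leads to decay of the mRNA, was included at 73.6%, 96.6% and 97.3% in C2C12 Myod1-/- libraries and at 97.5%, 95.6% and 89.3% in C2C12 WT libraries.

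**Figure D4:**
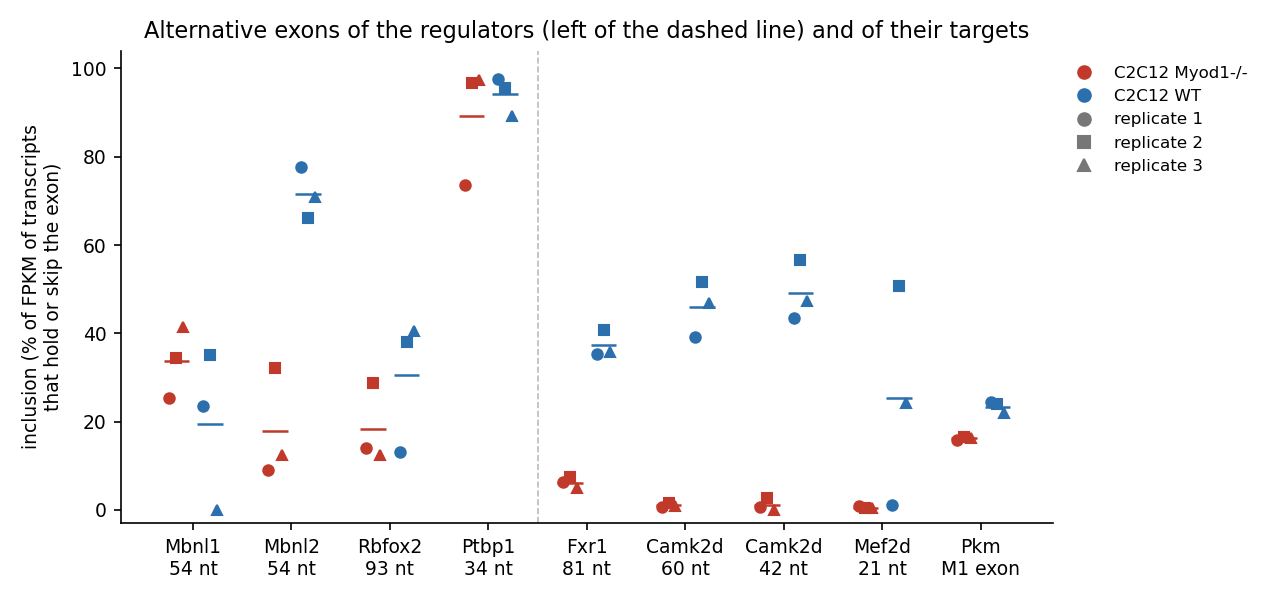
Inclusion (y axis, percent of the FPKM of transcripts that hold or skip the exon) of 4 exons of the regulators, left of the dashed line, and of 5 exons of target genes, in 3 C2C12 Myod1-/- libraries (red, left of each pair) and 3 C2C12 WT libraries (blue). Points are libraries, their shape gives the replicate number and lines are means. The Mbnl2 exon lies between 9.004% and 32.0% in C2C12 Myod1-/- libraries, all below the C2C12 WT libraries at 66.2% to 77.8%, and the Fxr1 and Camk2d exons separate in the same direction.

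Exons of 10 target genes known from work on these regulators were examined in the same way, and 28 exons in 9 of these genes could be tested. Inclusion of 3 fell and of 0 rose, where 2.15% of all 5069 exons tested passed. An unadjusted p under 0.05 (limma) was found for 14, but these are not 14 separate results. The exons tested in Bin1 rest on the same transcripts and have the same values, and so do some of those in Ldb3. How many of all exons had such a p was not counted. All 3 exons that passed lay in Fxr1 and Camk2d, and none of the exons tested in the other 7 genes passed. Both genes were singled out from the list after their values were seen, and the list itself was drawn up with earlier results of these data known. Only 1 was called lower without replicate 1 of C2C12 Myod1-/- and without replicate 1, 2 or 3 of C2C12 WT, and 0 with the replicate number as a block. The muscle exon of Fxr1 (81 nt) was included at 6.23%, 7.53% and 4.86% in C2C12 Myod1-/- libraries and at 35.4%, 40.8% and 35.9% in C2C12 WT libraries (log2 odds -3.10, SE 0.40, adjusted p = 0.0211, limma). The Camk2d exon of 60 nt was included at 0.758%, 1.51% and 0.827% in C2C12 Myod1-/- libraries and at 39.2%, 51.7% and 46.9% in C2C12 WT libraries (log2 odds -5.97, SE 0.47, adjusted p = 0.00487, limma). The Camk2d exon of 42 nt was included at 0.681%, 2.75% and 0.0110% in C2C12 Myod1-/- libraries and at 43.5%, 56.5% and 47.4% in C2C12 WT libraries (log2 odds -6.55, SE 0.89, adjusted p = 0.0255, limma). Both Camk2d exons rest largely on 1 transcript, ENSMUST00000200171, which was listed at 0 in all 3 C2C12 Myod1-/- libraries and at 5.80, 7.36 and 6.07 FPKM in C2C12 WT libraries.

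The M1 exon of Pkm, the best known exon blocked by PTBP1, was included at 15.9%, 16.6% and 16.2% in C2C12 Myod1-/- libraries and at 24.3%, 23.9% and 21.9% in C2C12 WT libraries. The libraries did not overlap, but the log2 odds differed by -0.65 (SE 0.36), which did not pass (adjusted p = 0.526, limma). Limma draws this SE toward the spread of the other exons tested, so that it is not the spread of this exon alone. Inclusion of the M1 exon had an SD of 0.34 percentage points in C2C12 Myod1-/- and of 1.29 in C2C12 WT libraries. The Mef2d exon of 21 nt was at 0.827%, 0.352% and 0.423% in C2C12 Myod1-/- libraries and at 1.21%, 50.8% and 24.3% in C2C12 WT libraries (adjusted p = 0.461, limma), so that replicate 1 of C2C12 WT lay near the C2C12 Myod1-/- libraries. The Mef2d exon of 135 nt was at 4.40%, 3.21% and 4.57% in C2C12 Myod1-/- libraries and at 8.65%, 4.93% and 7.66% in C2C12 WT libraries. These did not overlap, but the difference did not pass (adjusted p = 0.694, limma). Among 43 transcripts of 9 targets, the shares of 4 rose and of 3 fell by diffSplice, where 3.61% of all transcripts passed. With their own variance 3 rose and 2 fell, where 1.17% passed. The tests called different transcripts in Pkm. ENSMUST00000215623 fell by diffSplice (adjusted p = 0.00396) but did not pass with its own variance (0.514). ENSMUST00000216857 rose with its own variance (adjusted p = 0.0389) but did not pass diffSplice (0.224). Of the falls, Fxr1 ENSMUST00000001620 had 1.41, 1.79 and 1.13 FPKM in C2C12 Myod1-/- libraries and 14.8, 19.1 and 15.7 FPKM in C2C12 WT libraries, and of the rises, Camk2d ENSMUST00000199300 had 20.7, 10.7 and 20.5 FPKM in C2C12 Myod1-/- libraries and 0.775, 0.0994 and 0.808 FPKM in C2C12 WT libraries.

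As genes, 2 of the 10 targets rose and 6 fell, where 27.9% of all genes tested rose and 33.3% fell. Ttn, which encodes titin, had 0.00827 to 0.0102 FPKM in C2C12 Myod1-/- libraries and 5.65 to 9.36 FPKM in C2C12 WT libraries. On the log2 scale, Atp2a1 (the calcium pump of fast muscle) fell by 7.93, Ldb3 (a Z-disc protein) fell by 3.42, Bin1 (a membrane-bending protein) fell by 1.25, Fxr1 fell by 0.76 and Pkm fell by 0.51. Camk2d rose by 0.71 and Mef2d (a muscle transcription factor) by 0.25. Camk2d thus rose as a gene, while inclusion of its exons printed above fell. The other Camk2d exons tested did not pass. For a target that is nearly silent in C2C12 Myod1-/- cells, inclusion there rests on very little RNA.

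Of the other splicing regulators more rose than fell. Of 61 on 4 lists, 59 were found and 46 passed the filter, of which 18 rose, 7 fell and 21 did not pass, with a median log2 difference of 0.14. This is 54.3% called, under the 61.1% among all genes, of which 27.9% rose and 33.3% fell with a median of -0.05. The number that fell was 4 without replicate 3 of C2C12 Myod1-/- or replicate 3 of C2C12 WT. Among family paralogs of the muscle regulators, Ptbp2 and Ptbp3 rose with Ptbp1 (log2 difference 0.57, SE 0.10, adjusted p = 0.00227 and 0.29, SE 0.04, adjusted p = 0.00133) while Celf5 fell with Celf2 (-1.93, SE 0.21). Rbm38, a paralog of Rbm24, fell by 0.99 (SE 0.31, adjusted p = 0.0313), with 4.96, 2.46 and 2.55 FPKM in C2C12 Myod1-/- libraries and 8.24, 4.90 and 6.32 FPKM in C2C12 WT libraries, which overlapped. Rbm4b did not pass the test.

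Among tissue-restricted and other regulators, Qk (Quaking, a regulator of muscle and glial exons) fell by 0.41 (SE 0.07) and Khdrbs1 by 0.15 (SE 0.04), while Elavl1 rose by 0.45 (SE 0.05) and Tial1 by 0.18 (SE 0.06). Of 12 SR proteins, which mostly promote exon use, 6 rose and 0 fell, so that 50% were called, under the 61.1% among all genes. The largest rises were in Srsf10 (0.78, SE 0.08), Srsf7 (0.41, SE 0.05), Srsf1 (0.35, SE 0.06) and Srsf4 (0.20, SE 0.04), whereas the abundant Srsf2, Srsf5, Srsf6 and Srsf11 did not pass. Of 22 hnRNP and PCBP proteins, 8 rose and 3 fell, again 50% called. The largest changes were in Hnrnpa0 (-0.62, SE 0.20), Hnrnpu (0.57, SE 0.14), Pcbp2 (0.51, SE 0.04) and Hnrnpll (0.42, SE 0.07). Hnrnpa1, Pcbp1 and Hnrnpf, among the most abundant, did not pass. In the sums of listed transcripts 7 of the other splicing regulators rose and 4 fell. There 45.3% of all genes tested passed, against 61.1% in the gene table.

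**Figure D5:**
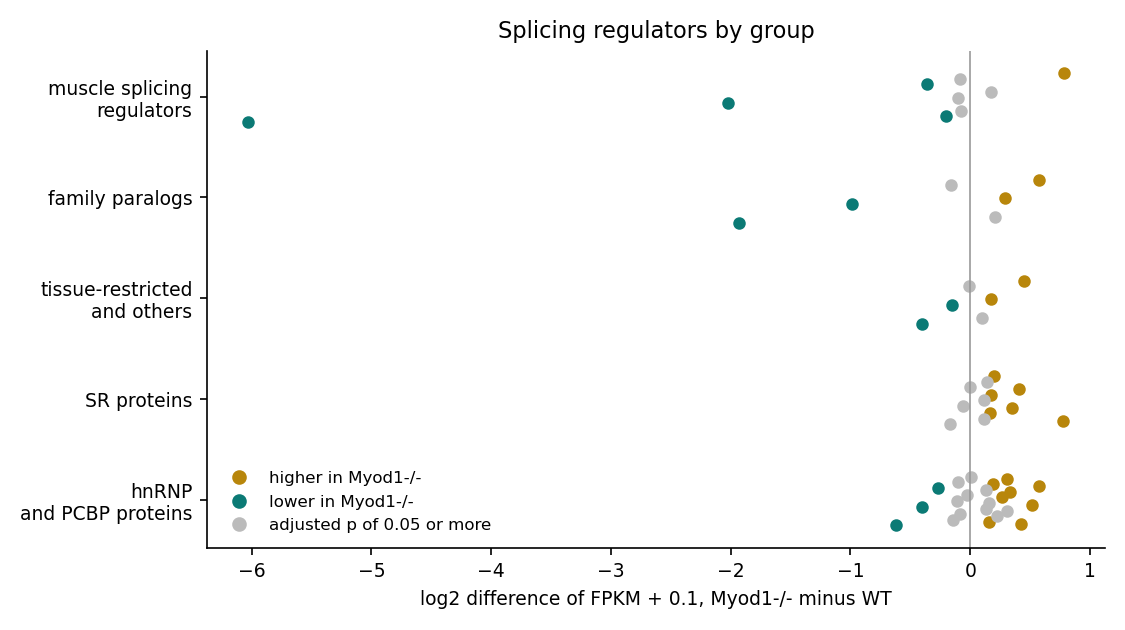
Log2 difference of FPKM + 0.1, C2C12 Myod1-/- minus C2C12 WT (x axis), of 9 muscle splicing regulators and of 46 other splicing regulators in 4 lists (rows). Each point is a gene and colour gives the call at an adjusted p of 0.05. Rbm24 (-6.03) and Celf2 (-2.02) lie farthest left, with Celf5 (-1.93) next.

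MyoD is known to bind short sites called E-boxes. Promoters of 250 bases before to 50 after a start (RefSeq, GRCm38.p6) were given for 8 of the 10 regulators, 14 in all. An E-box with the letters CAGCTG, which is its own reverse complement, or one that reads CAGGTG on either strand, stood in 3 of the 14 and in 32.9% of all 32851 promoters. CAGCTG alone stood in 16.3% of them. Celf2 and Mbnl1, which fell, had no match in their 5 and 2 promoters, nor did the upstream promoter of Rbfox1. The promoters of genes that fell and had a match are shown, with the match in capitals. That of Rbm24 (chr13:46418050-46418349, + strand) has CAGGTG 246 bases before the start, and the inner promoter of Rbfox1 (chr16:7069585-7069884, + strand), in which ENSMUST00000229741 starts, has CAGCTG 72 bases before the start. The third was in Ptbp1, 39 bases after the start. A match is a run of letters and not a binding site.
Rbm24 promoter: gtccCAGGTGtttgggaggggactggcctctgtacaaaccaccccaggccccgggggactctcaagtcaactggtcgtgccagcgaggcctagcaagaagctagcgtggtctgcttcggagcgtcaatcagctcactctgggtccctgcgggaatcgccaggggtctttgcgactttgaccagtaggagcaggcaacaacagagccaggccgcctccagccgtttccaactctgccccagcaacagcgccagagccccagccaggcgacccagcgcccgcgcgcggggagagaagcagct
Rbfox1 promoter: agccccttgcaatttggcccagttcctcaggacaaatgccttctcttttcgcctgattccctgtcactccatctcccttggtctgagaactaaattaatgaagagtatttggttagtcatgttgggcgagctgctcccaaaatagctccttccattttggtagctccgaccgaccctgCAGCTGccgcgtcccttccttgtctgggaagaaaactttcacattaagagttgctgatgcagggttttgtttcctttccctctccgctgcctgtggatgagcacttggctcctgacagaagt

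Myod1, the targeted gene, had 0.0614, 0 and 0 FPKM in C2C12 Myod1-/- and 17.3, 25.8 and 27.7 FPKM in C2C12 WT libraries. Replicates correlated across genes at r of 0.975 to 0.982, against 0.797 to 0.811 between genotypes, and the relative depth of the libraries, read from the smallest steps of FPKM in transcripts with 1 exon, differed little, at 0.926 to 0.967 in C2C12 Myod1-/- and 0.886 to 1 in C2C12 WT. Of 7 skeletal muscle markers, 5 fell, and their summed FPKM was 18.8 to 20.3 in C2C12 Myod1-/- and 2377 to 2550 in C2C12 WT libraries. Myf5 was at 4.57 to 5.36 in C2C12 Myod1-/- and 4.23 to 6.08 in C2C12 WT libraries, and Pax7, which marks satellite cells, was at 0 in C2C12 Myod1-/- and at most 0.13 in C2C12 WT libraries. The sum over 6 neuron markers was 1.64 to 1.79 FPKM in C2C12 Myod1-/- and 15.2 to 16.3 FPKM in C2C12 WT libraries, mostly Stmn2, with Rbfox3 at 0 to 0.02 in both genotypes. The sum over 5 leukocyte markers was 74.0 to 74.6 FPKM in C2C12 Myod1-/- and 11.5 to 14.2 FPKM in C2C12 WT libraries, all but a small part of it Cd14 and Cd68, with the pan-leukocyte gene Ptprc at 0.0218 or less in both. The sums over 3 epithelial and 3 endothelial markers were under 0.2 FPKM in every library, and that over 3 heart markers was 0.0586 to 0.168 in C2C12 Myod1-/- and 5.99 to 6.75 FPKM in C2C12 WT libraries. The part of these differences in cell makeup in the values of the splicing regulators was not tested.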

How the data were processed

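Total RNA of 3 C2C12 Myod1-/- and 3 C2C12 WT samples was depleted of rRNA and sequenced. The authors demultiplexed with bcl2fastq, trimmed with fastp, checked reads with FastQC, aligned them to GRCm38 with HISAT2 or TopHat, and computed the deposited FPKM of genes and transcripts with StringTie. Versions and annotation are not given in the sources used here. Low FPKM of transcripts with 1 exon were whole multiples of a step within 0.05 of a step in 99.7% to 99.8% of values, which gave the relative depth of libraries, but the number of reads is unknown and no count model was used. Columns were assigned to samples through a supplementary table of the study that prints the same FPKM under genotype and replicate headings, where 3192 of 3192 uniquely named genes had the same 6 values to a relative 0.001.

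FPKM were transformed to log2(FPKM + 0.1), features with a mean under 0.5 FPKM were left out, and limma 3.58.1 (R 4.3.3; lmFit, eBayes with trend) compared genotypes over all genes, transcripts, transcript shares (diffSplice) or cassette exons, with Benjamini-Hochberg adjustment over all features tested and a threshold of 0.05. Cassette exons came from GENCODE vM21 (GRCm38), which holds 109 of the 110 transcripts, and needed 1 FPKM of both forms together and 5% to 95% mean inclusion. Tables and figures were made in Python 3.11.15 with pandas 2.3.3, numpy 2.4.6 and matplotlib 3.10.9. The fits were tested on simulated data. Since diffSplice there called some unchanged transcripts, which it gives 1 variance per gene, the share test with a variance per transcript was added. The sums of listed transcripts, that test and the exon comparison, with the exons named, were chosen after seeing the data.

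Genes named are all 10 regulators and their transcripts with at least 10% of a gene's FPKM in a genotype's mean or a called share. Each list gives at most 4 of its most abundant genes and at most 4 of those called, by size of change. Of the 10 targets listed, Fxr1 and Camk2d, and the exons, were singled out for description after their values were seen. The members and lists were chosen with earlier results of these data known. Other pseudocounts, filters, scalings, a replicate block, no trend and leaving out each library were tried.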

Additional observations from a re-analysis of the deposited data

How the results depend on the processing

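Genes and transcript shares were recomputed under 15 alternatives, transcripts under 14, exon inclusion under 11 and family sums under 2. Scalings, removal of the filter and sums of transcripts were not run for exons. Celf2 and Rbm24 stayed called as lower and Ptbp1 as higher in all 15. Deviations from the genotype means correlated at -0.10, -0.14 and -0.03 between libraries of the same replicate number, and at -0.05 to 0.16 between the others. No pairing by number was seen, but 3 libraries per genotype cannot settle whether the samples were paired. With a replicate block 1 regulator was called higher and 3 lower, the call of Rbm20 being lost (adjusted p = 0.0701, limma). The block also left 0 regulator transcripts called higher and 0 target exons called lower. Regulators called lower numbered 2 after quantile normalization, 2 with FPKM scaled to the same sum, and 2 to 3 when each library was left out in turn. Mbnl3 was higher by 0.13 after quantile normalization and by 0.36 in the sums of listed transcripts, and ranged from -0.18 to 0.024 when each library was left out in turn. Celf1 was higher by 0.057 in the sums and ranged from -0.16 to 0.020 with a library left out, and Rbfox2 ranged from -0.40 (without replicate 1 of C2C12 Myod1-/-) to 0.49 (without replicate 3 of C2C12 Myod1-/-). None of these positive values reached the threshold, and the cause was not tested.

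The 1 regulator transcript called higher was lost with a pseudocount of 1, without a filter and with a filter of 1 FPKM (0 each), and in leave-one-out fits 0 to 1 were called higher and 4 to 6 lower. Without a filter the shares of 3 regulator transcripts were called higher and of 8 lower, and of 7 target transcripts lower, since rare transcripts then enter. Leaving out libraries gave 0 to 1 regulator shares called higher and 1 lower, 0 to 1 regulator exons called higher and 0 to 1 lower, 1 to 2 target exons called lower, and 4 to 6 other splicing regulators called lower. With a pseudocount of 1, inclusion of 1 regulator exon and 5 target exons was called lower. Over all genes, 4441 were called higher and 4188 lower after quantile normalization and 4397 higher and 4094 lower with FPKM scaled to the same sum, against 3914 higher and 4670 lower as deposited. In the sums of listed transcripts 2602 of all genes were called higher, other splicing regulators numbered 7 higher and 4 lower, and the log2 ratio of summed RBFOX FPKM was -1.55, against 0.02 in the gene table. The number of reads is unknown, so no counting error can be given for low transcripts.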
